A study of Danio rerio with 12 samples.

Results

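The WT larvae given vehicle were 3 of the 12 RNA-seq libraries of zebrafish harvested at 48 h post-fertilization (hpf), and were found by the count columns of the 3 samples labelled WT and Control. Each library was made from RNA of whole larvae, with 20 embryos per replicate, and the vehicle was 0.1% DMSO. The WT group pooled wild-type embryos with *apc* mcr/+ heterozygotes, since only homozygotes can be told by their shape at 24 hpf. The other groups, with 3 libraries each, were *apc* mcr/mcr mutants in vehicle (mutant vehicle), WT larvae given 100 nM rapamycin from 24 hpf (WT rapamycin) and mutants given the same rapamycin (mutant rapamycin). Rapamycin blocks mTORC1, and Apc, the protein that the *mcr* allele affects, is a scaffold of the complex that marks β-catenin for breakdown. Libraries were from poly-A RNA, and the values are the authors' estimated counts per gene.

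At this stage a zebrafish is at the turn from embryo to larva. The trunk is filled with contracting fast muscle, a layer of periderm covers the body, primitive red cells circulate, and the yolk is drawn down through the yolk syncytial layer, which exports lipid on apolipoproteins. Hatching gland cells release the proteases that digest the egg envelope. Cartilage of the head is starting to form, photoreceptors begin to differentiate, and the exocrine pancreas and lymphoid organs are still immature. Many zebrafish genes exist as a pair, named with the letters a and b, that stems from a whole-genome duplication in the ancestor of teleost fish. The comparisons here ask what such larvae express without the homozygous *apc* mutation or rapamycin, and how closely 3 pools of them resemble each other.

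Total counts were 74395349 to 77680617 per WT vehicle library, and 51692772 to 82364863 over all 12. The factors of edgeR's trimmed mean of M-values (TMM) normalization were 1.04 to 1.08 in WT vehicle, and the lowest of the 12 was 0.824 in WT rapamycin replicate 3. The *apc* gene (ENSDARG00000058868) had 10211, 10007 and 10365 counts in WT vehicle and 6785, 8270 and 5593 in mutant vehicle. The groups did not overlap, and the log2 difference of mutant minus WT was −0.49 (SE 0.12, adjusted p = 0.0153 by edgeR). With single libraries left out the difference stayed negative, but the edgeR adjusted p for *APC* was 0.0505 without WT vehicle replicate 2 and 0.0603 without WT vehicle replicate 3. Among genes called between mutant and WT vehicle, WT vehicle replicate 2 lay on the mutant side of both other WT libraries more often than either of them did, as shown with the plot of the left-out libraries. The counts and tests of that comparison are therefore also given without it. Counts were not divided by transcript length, since no lengths were at hand, so a share of counts says how much of a library a gene took and not how many molecules it had.

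A small number of genes of muscle, skin, mitochondria and protein synthesis took a large part of the counts. The 10 genes with the most counts took 12.05% ± 0.594 of a WT vehicle library (mean ± SD, n = 3), the first 100 took 37.69% ± 0.718 and the first 1000 took 67.36% ± 0.792. At the other end, 2655 of the 25902 genes had a mean above 0 and under 10 counts, and together they held 0.0131% of the counts. In mutant vehicle larvae the same 10 genes took 10.59% ± 0.407, and 91 of the first 100 genes were also among the first 100 of the mutants.

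The gene with the most counts was *myhz1.1* (ENSDARG00000067990), a fast skeletal myosin heavy chain, with 1812188, 1479569 and 1489763 counts in replicates 1, 2 and 3, which is 2.1% ± 0.201 of a library. Next came *actc1b*, a muscle actin, with 1683817, 1417287 and 1583340 counts. The other muscle genes among the first 20 had smaller mean shares of counts. They were *atp2a1* (1.11%), the calcium pump of the sarcoplasmic reticulum, the tropomyosin *tpma* (0.859%), the muscle creatine kinases *ckmb* and *ckma* (0.828% and 0.673%), the myosins *myhz1.2* and *myhz2* (0.778% and 0.533%), the parvalbumins *pvalb1* and *pvalb2* (0.681% and 0.642%), which buffer calcium, and the actin *ACTA1* (ENSDARG00000055618, 0.527%). In all, 11 of the first 20 genes were myosins or members of the skeletal muscle list.

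Keratins and lipid carriers followed. The type II keratin *krt4* had 1156533, 1043404 and 968489 counts (1.39% ± 0.101), and the type I keratins *cyt1* and *cyt1l* had mean shares of 0.678% and 0.578%. For *cyt1* the counts of 539868, 595652 and 404479 put replicate 3 lowest, and for *cyt1l* replicate 3 was lowest as well, with 355950 counts against 474261 and 484631. The apolipoproteins *apobb.1* and *apoa1b*, which carry lipid out of the yolk, took 0.58% ± 0.0222 and 0.496% ± 0.0222. Of the remaining genes, *MT-CO1*, a subunit of cytochrome c oxidase made from mitochondrial DNA, took 1.19% ± 0.0633, *eef1a1l1*, an elongation factor of translation, 1.06% ± 0.0399, and the chaperone *HSPA8* (ENSDARG00000068992) 0.5% ± 0.0273.

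None of the first 20 genes passed the test and the 2-fold minimum between mutant and WT vehicle, where 7.95% of the 22335 genes tested did, and 5 had an adjusted p under 0.05 (edgeR) with smaller differences. Without WT vehicle replicate 2 none was called and 4 had such a p.

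**Figure D1:**
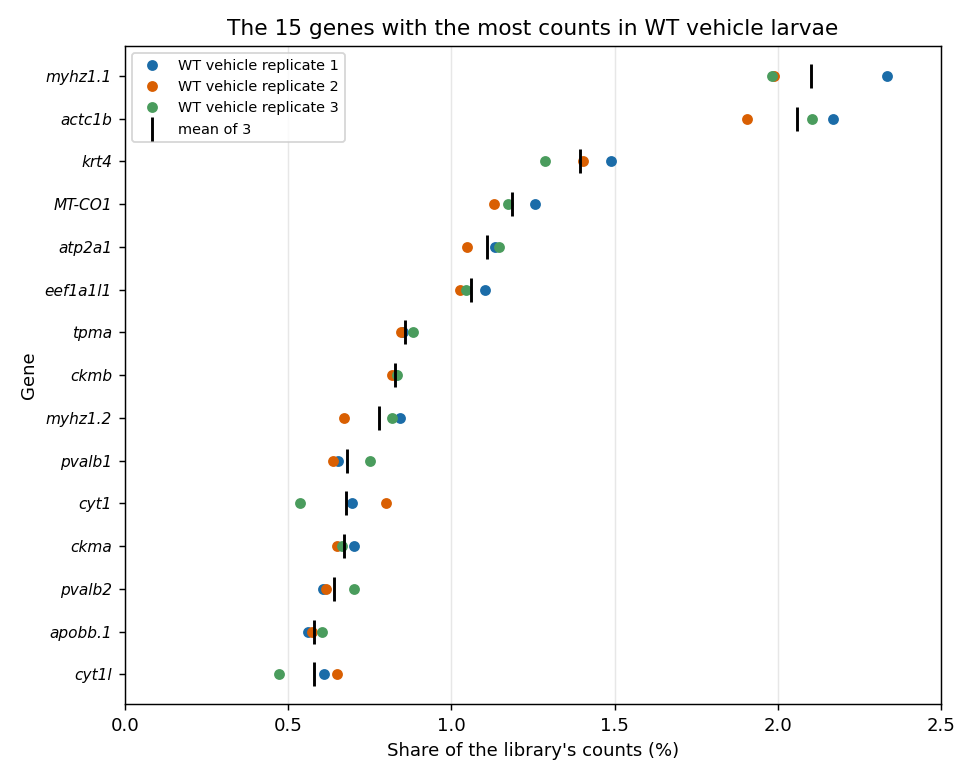
Share of the library's counts (%, x axis) of the 15 genes with the most counts in WT vehicle larvae, with 1 point per library and a bar for the mean of 3. *myhz1.1* and *actc1b* lie apart from the rest with means of 2.1% and 2.06%.

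Grouped by name, 103 genes averaged 100000 counts or more and held 38.08% of the counts. Of these, 34 were ribosomal proteins, 9 were transcripts of mitochondrial DNA, 8 were myosins, 6 were keratins, 5 were actins, 5 were troponins or tropomyosins, 5 were apolipoproteins, 3 were translation factors and 2 were globins. The 94 genes of the ribosomal protein class together took 11.26%, 10.85% and 10.52% of the 3 libraries (10.88% ± 0.371). The ribosomal protein gene *RPSA2*, with 289275, 277512 and 266660 counts, fell outside the class by its name, and so outside the 34. The 13 genes of mitochondrial DNA took 3.75% ± 0.112, the 45 myosins 5.57% ± 0.269 and the 22 keratins 3.60% ± 0.278. These classes rest on the letters a name starts with, and the genes without a name were left in none.

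Tissue programs were read from 35 lists of marker genes, of which 458 genes were matched in the table. Every one of these genes had a count in at least 1 WT vehicle library, so no list was without signal, and the lists differed instead in their summed share of counts, which ran from 9.30% for skeletal muscle to 0.000278% for olfactory and taste receptors. In RNA of whole larvae, fewer cells of a type and less RNA per cell cannot be told apart. For 69 of the 465 list symbols, the match was to a human symbol without the paralog letter. Such a match took in every gene of that symbol, so a list can hold paralogs not chosen as markers. *STMN1*, *ATP1B1* and *SOX9* entered their lists this way.

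Skeletal muscle led with 9.38%, 8.94% and 9.56% of the counts in the 3 libraries. Of its 21 genes, 20 had a mean over 1000 counts. The regulators of muscle identity took far fewer counts than most structural genes of the list, with 1864, 1891 and 2001 counts for *MYOD1* and 1371, 1399 and 1475 for *MYOG*. The troponin gene *TNNI2* (ENSDARG00000045592) was lower still, with 39, 26 and 29. The giant sarcomere protein titin was split over 2 genes named *TTN*, with 91992, 91497 and 90938 counts (ENSDARG00000028213) and 75526, 76589 and 69955 (ENSDARG00000000563). Cardiac muscle, a small organ at this age, took 0.0289% ± 0.0019. Its leading genes were a myosin heavy chain listed under the human symbol *MYH6* (ENSDARG00000079564) with 6518, 5606 and 6656 counts, the myosin gene *vmhcl* with 4001, 3123 and 2576, and *MYL7*, a myosin light chain of the heart, with 2851, 2368 and 2760. The symbol *vmhc* of the ventricular myosin heavy chain was not matched by name. Which zebrafish gene stands under *MYH6* was not checked. The zebrafish atrial myosin *myh6* (ENSDARG00000090637) had 1060, 855 and 1062.

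The outer layers of the larva came next. The 19 genes of epidermis and periderm took 3.79%, 3.79% and 3.31%, and all had a mean over 1000 counts. Beside the keratins named above, the basal epidermal keratin *krtt1c19e* had 286553, 222713 and 310985 counts, with replicate 2 lowest. The transcription factor *TP63*, which specifies basal epidermis, had 3155, 3376 and 3977 counts. The list of ionocytes, the skin cells that move ions between body and water, took 0.0502% on average. It was led by the proton pump subunit *ATP6V1A* (ENSDARG00000034534) with 12375, 11151 and 12042 counts and the sodium pump subunit *ATP1B1* (ENSDARG00000013144) with 7369, 7550 and 8353. Their mean shares were 0.0156% and 0.0103%, and a second gene of each name took 0.00732% and 0.00383%. *foxi3b* and *foxi3a* took 0.00151% and 0.000772%. How much of the pump genes' RNA came from ionocytes was not tested. The epithelial calcium channel *TRPV6*, with 1896, 1004 and 953 counts, was highest in replicate 1.

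Most genes of the yolk and liver lists took many counts, but the liver markers *fabp10a*, *TTR* and *ahsg2* took few. Which tissue made the RNA of the liver list was not tested. The 13 genes of the yolk syncytial layer and lipid export took 2.54%, 2.44% and 2.53% of the counts, and every one of them had a mean over 1000. Behind *apobb.1* and *apoa1b* stood *apoa1a*, the main protein of high-density lipoprotein, with 340770, 339516 and 327753 counts, whereas *MTTP*, which loads lipid onto apolipoprotein B, had 1472, 1382 and 1384. The 17 liver genes took 0.453% ± 0.0141, led by the iron carrier *tfa* with 95693, 69078 and 84757 counts, the retinol carrier *RBP4* with 38811, 41751 and 44685, and *a2ml*, a protease inhibitor of plasma, with 35902, 37063 and 42672. In contrast, *fabp10a*, a fatty acid binding protein that is the usual liver marker of older larvae, had 182, 176 and 269 counts. The thyroid hormone carrier *TTR* had 2, 2 and 4 counts, and *ahsg2* had 1 count in replicate 2 and none in the others.

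Among the blood lists, that of embryonic red cells took the most counts. The 13 erythroid genes took 0.509% ± 0.043, led by the embryonic α-globins *hbae3* (187808, 160170 and 179398 counts) and *hbae1.3* (163814, 118554 and 148621) and by *alas2*, which starts haem synthesis, with 16527, 14155 and 17119. Of the 16 erythroid symbols 12 were matched. The embryonic β-globins *hbbe1.1*, *hbbe1.2*, *hbbe1.3* and *hbbe2* were not, so the share and the order leave them out. The β-globin *hbbe3* was matched, with 15160, 8674 and 9483 counts. Adult α-globin was close to absent, with 36, 50 and 17 counts for *hbaa1* and 1, 0 and 5 for *hbaa2*. The 14 myeloid genes took 0.0299%, 0.0243% and 0.0214%, and 10 of them were highest in replicate 1, where 35.7% of all 22598 genes tested were. Lysozyme, *lyz*, had 10875, 7695 and 6420 counts, the neutrophil protease *npsn* 3182, 2821 and 2484, and the actin-bundling *LCP1* 2001, 1496 and 1225, so these 3 genes kept 1 order of libraries. The 11 lymphoid genes took only 0.00051% to 0.000645%. *IKZF1*, a regulator of early lymphoid cells, had 152, 180 and 166 counts, the recombinase genes *rag2* and *RAG1* had 58, 91 and 74 and 77, 69 and 71, and the T and B cell genes *lck*, *cd4-1*, *cd8a*, *cd79a* and *cd79b* had 15 counts or fewer in each library.

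The matched genes of the neuron and glia lists all had counts. The 27 neuronal genes took 0.163% of the counts on average, from 0.159% to 0.166% over the libraries, led by the microtubule regulator *STMN1* (16368, 15275 and 15424 counts for ENSDARG00000033655, and 14504, 13287 and 13875 for ENSDARG00000004169) and by *gap43*, a protein of growing axons, with 13406, 12455 and 12107. The glial list was led by *fabp7a*, a fatty acid binding protein of radial glia, with 52788, 47506 and 49783 counts, followed by *GFAP* with 11296, 14105 and 13518 and *GLUL*, the glutamine synthetase, with 9859, 9946 and 10006.

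In the eye, lens genes took many counts and those of photoreceptors few. The 20 lens genes took 0.360% on average, with *CRYBA4* at 64160, 45860 and 45048 counts, *CRYBA2* (ENSDARG00000041925) at 45568, 32817 and 36088 and *cryba1l1* at 26441, 29923 and 25892, all crystallins that fill the lens fibres. The first 2 were highest in replicate 1, while *CRYBB1*, another crystallin, was lowest there, with 10489 counts against 30411 and 22689. The 20 photoreceptor genes took 0.0124% on average, and 4 of them had a mean over 1000 counts. The transcription factor *NR2E3* had 2201, 2133 and 2198 counts, *otx5* 2243, 1224 and 1860, and the arrestin *sagb*, which ends the light response, 1551, 1174 and 1923. Rhodopsin, *rho*, had 1042, 1039 and 1152 counts, while the cone opsins *opn1sw2*, *opn1mw1* and *opn1lw1* lay between 7 and 55 counts. The pigment genes of retinal epithelium and melanophores took 0.121% on average, with *pmela* at 30693, 31171 and 33519 counts, *TYRP1* (ENSDARG00000056151) at 25096, 26114 and 30153 and *DCT* at 13014, 12619 and 13931, all 3 highest in replicate 3. Of the other pigment cells, *gch2*, an enzyme of the yellow pteridine pigments, led with 19655, 16284 and 16739 counts, and *pnp4a*, of the purine pathway of silver iridophores, had 3174, 2885 and 2819.

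Genes of cartilage, fin fold and bone took smaller shares. The 15 cartilage genes took 0.121%, 0.152% and 0.164%, with replicate 1 lowest, led by *matn4* (39082, 33419 and 39839 counts), *COL11A1* (11140, 19691 and 18487) and *col2a1a*, the main collagen of cartilage and notochord sheath (6436, 13148 and 13181). The actinodins *and2* and *and1*, which build the fibrils of the fin fold, had 41313, 44116 and 48885 and 41687, 42610 and 48353 counts, and *and3* had 15352, 15413 and 16363. Genes of bone took few counts. *SP7*, the regulator of osteoblasts, had 73, 81 and 94 counts and *bglap*, which encodes osteocalcin, 11, 11 and 19. *entpd5a*, needed for mineralization, had 248, 306 and 364. *COL10A1*, a collagen of bone and of late cartilage, was the exception with 7199, 7244 and 7817.

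Every matched gene of the intestine, pancreas and pronephros lists had a count in WT vehicle. Of the symbols, 12 of 16 were matched for exocrine pancreas, 10 of 11 for endocrine pancreas and 9 of 11 for intestine. The exocrine symbols *try*, *cpa4*, *cpa5* and *ctrb1* were not matched, so the exocrine values below leave these enzymes out. The endocrine list was led by *neurod1* (10867, 9916 and 10675 counts) and *ISL1* (5030, 5167 and 5455), transcription factors that neurons express too. Insulin, *ins*, had 854, 957 and 1156 counts, *GCG* 600, 499 and 540 and *sst1.2*, a somatostatin, 534, 516 and 516, against the enzymes of the exocrine pancreas, where *prss1*, a trypsin, had 155, 149 and 169, *CPA1* (ENSDARG00000021339), a carboxypeptidase, 379, 318 and 256 and *prss59.1* 2, 1 and 3. The exocrine regulator *PTF1A* was the highest of that list, with 743, 728 and 690 counts. The intestinal fatty acid binding protein *FABP2* had 5421, 7381 and 4586 counts, *AGR2* had 5560, 5181 and 5234, and *alpi.1*, an alkaline phosphatase, 1350, 1428 and 1369. In the pronephros, the phosphate transporter *SLC20A1* (ENSDARG00000010641) had 4854, 6135 and 6165 counts, *CDH17* 3240, 3266 and 3334, and the podocyte gene *podxl* 2523, 2352 and 2507.

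Lists of neural crest, endothelium, ear and cell cycle were of middle size. *TFAP2A*, a transcription factor of crest and epidermis, had 12321, 12229 and 13571 counts, *tfap2b* 2783, 3350 and 3092 and *SOX9* (ENSDARG00000003293) 2781, 2016 and 2628. In endothelium *FLI1* had 2229, 2278 and 2561 counts, the receptor *kdrl* 2152, 2119 and 2294 and *stab2* 1757, 2021 and 1911. *SPARC* led the ear list, though many other tissues express it, with 78543, 68887 and 75880 counts, followed by *stm* (starmaker), a protein of the otolith, with 11281, 9871 and 10006 and *OTOP1* with 1080, 1587 and 1490. The cell cycle list took 0.289%, 0.335% and 0.301%. In it 15 of 18 genes were highest in replicate 2, where 34% of all 22622 genes tested were. Its leading genes were *mki67* (36210, 38781 and 35144 counts), *PCNA* (30063, 32163 and 28369) and *RRM2* (ENSDARG00000020711; 27902, 23535 and 27341), of which the last had its lowest value in replicate 2.

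Endocrine, germ line and maternal genes were near the lower end. Growth hormone, *gh1*, had 130, 148 and 173 counts, *POMC* 249, 243 and 285 and prolactin, *prl*, 275, 211 and 221. The gonadotropin subunits *lhb* and *fshb* had 2 counts or fewer. Among thyroid and parathyroid genes, *GCM2* had 679, 549 and 663 counts, thyroglobulin, *tg*, 368, 335 and 387 and *SLC5A5*, the iodide transporter, 15, 12 and 20. The germ line genes *DDX4* (226, 225 and 183), *SYCP1* (164, 154 and 171) and *PIWIL1* (91, 110 and 106) led their list, and of the oocyte and maternal genes *pou5f3* had 127, 74 and 53 counts, *zp2.1* 60, 58 and 54 and *ZAR1* 51, 49 and 44. The vitellogenin genes *vtg7* and *vtg1*, yolk precursors made by the adult female liver, had 219, 257 and 180 and 38, 46 and 27 counts. The olfactory marker protein *OMP* had 156, 124 and 137 (ENSDARG00000032380) and 26, 31 and 61 counts (ENSDARG00000105218), and *tas1r1*, a taste receptor, had 10, 21 and 17.

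**Figure D2:**
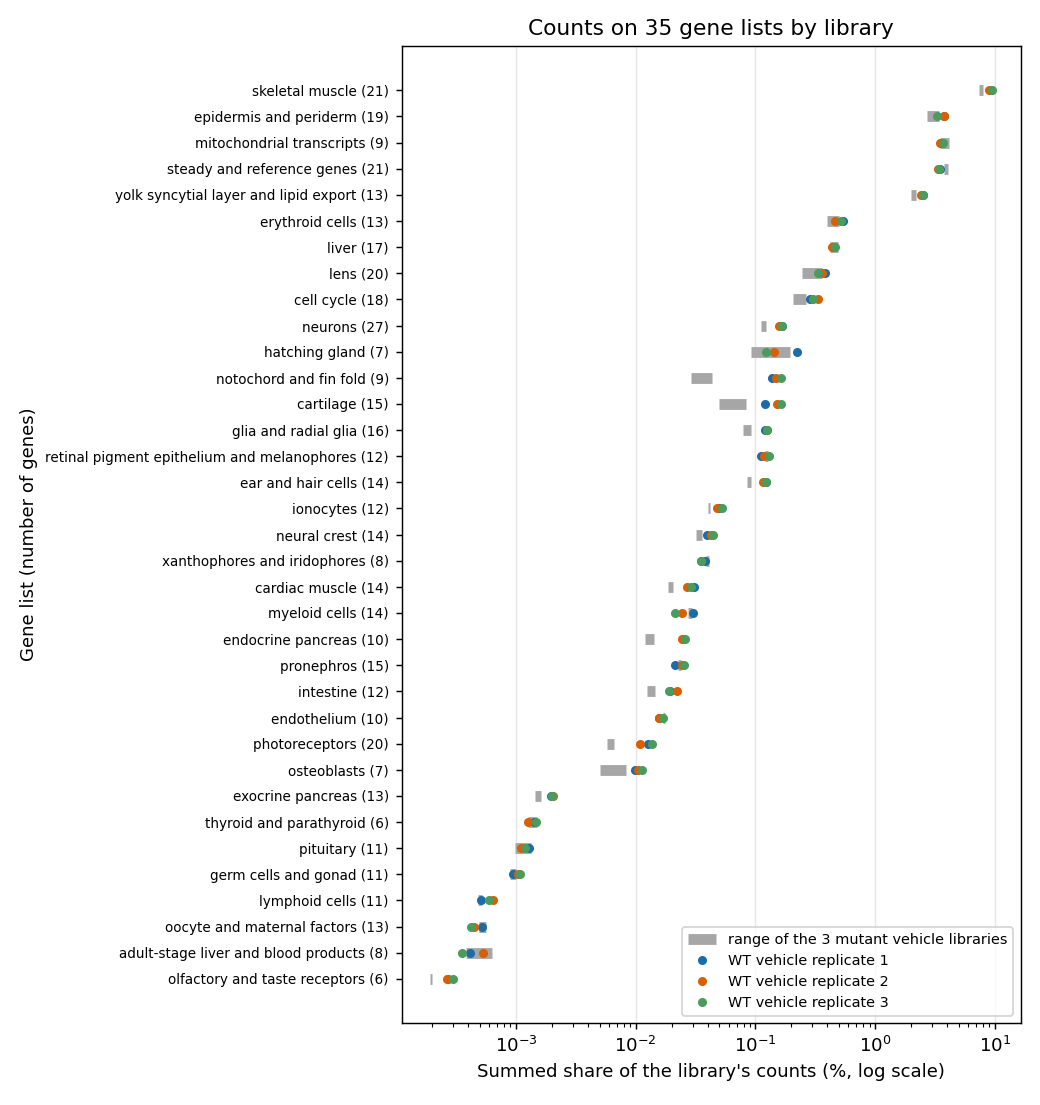
Summed share of each library's counts (%, log scale, x axis) for the 35 gene lists, with the number of genes in brackets, 1 point per WT vehicle library and a grey bar for the range of the 3 mutant vehicle libraries. Skeletal muscle lies at the top with 8.94% to 9.56%, and the hatching gland list shows the widest gap between WT libraries.

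Between WT and mutant vehicle larvae, the lists of cartilage, notochord and fin fold, photoreceptors and ear held the most genes lower in mutants. A gene was called when its edgeR adjusted p was under 0.05 and its difference at least 2-fold, and the share called among all 22335 genes was 4.05% for higher and 3.9% for lower in mutants, where the median log2 difference was −0.0043. Of 15 cartilage genes 7 were called lower and none higher (median −1.06), of 9 notochord and fin fold genes 5 lower and none higher (median −1.57), of 19 photoreceptor genes 8 lower and 2 higher (median −0.89), and of 14 ear genes 4 lower and 1 higher (median −0.53). No gene was called in the lists of skeletal muscle (21 tested, median −0.23), erythroid cells (13, −0.14), yolk syncytial layer (13, −0.23), lens (18, −0.30), cell cycle (18, −0.35) or mitochondrial transcripts (9, 0.12). Among the leading genes of WT larvae, *matn4* fell from the WT counts above to 9965, 10368 and 9533 in mutants, by 1.83 on the log2 scale (standard error 0.09, edgeR adjusted p = 9.193e-06), *and2* to 9630, 10630 and 7333, and *fabp7a* to 20214, 22703 and 22793. In all, 1775 genes were called, and 1705 without WT vehicle replicate 2, which is 4.02% higher and 3.52% lower of those then tested. Without it 4 cartilage genes were called lower, 5 of notochord and fin fold, 9 of photoreceptors and 4 of the ear, and *matn4* was lower by 1.88 on the log2 scale (edgeR adjusted p = 1.882e-05). The cartilage count was also 4 without WT vehicle replicate 3 and without mutant vehicle replicate 3, and 9 without mutant vehicle replicate 2, where 1 skeletal muscle gene was called lower as well. The lists were written with earlier results of these data known, so these counts are a description.

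Rapamycin given to WT larvae left no gene past the test, which used all 12 libraries and called 0.0% of 22841 genes (edgeR adjusted p under 0.05, no fold minimum). At an unadjusted p under 0.05 there were 1394 genes, and DESeq2 called 11. The biological coefficient of variation (the spread between replicates beyond counting error) was 33.12% in WT rapamycin, against 12.06% in WT vehicle, 16.83% in mutant vehicle and 15.13% in mutant rapamycin.

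Genes without any count were the counterpart of these programs. In WT vehicle 964 of 25902 genes (3.72%) had 0 counts in all 3 libraries, which hold 227293215 counts together. For such a gene, an expected count of up to 3 in that total cannot be told from none. Another 1300 genes had a count in 1 or 2 libraries only, and 23638 had a count in all 3. Of the 964, 486 were at 0 in all 12 libraries. The other 478 had a count elsewhere, but only 23 reached more than 10 counts in any library. Mutant vehicle, WT rapamycin and mutant rapamycin had 1016, 1061 and 1021 genes at 0. Many of the 964 were poorly described genes, since 444 had no name and 243 had a name of the si: type given to clones.

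Several receptor and immune families held many genes at 0. Of 35 immunoglobulin heavy chain variable genes (*ighv*), 32 were at 0, and the highest, *ighv14-1*, had 94, 77 and 94 counts. Of 45 trace amine receptors (*taar*) 22 were at 0, of 156 odorant receptors (*or*) 42, and of 49 olfactory receptors of the C family (*olfc*) 11. Counts of odorant receptors were few. Over all 156, those at 0 included, the median gene had a mean of 2 counts (rounded down), and *or80a3* was highest at 447, 467 and 516. Of 110 *pimr* genes, relatives of the Pim kinases, 27 were at 0, and *pimr40* was highest with 537, 664 and 195. Elastases of the pancreas had 5 of 10 genes at 0, and Kazal protease inhibitors (*spink*) 7 of 11. None of the 47 Hox genes, none of the 22 keratins and none of the 90 *rpl* and *rps* genes was at 0, where 3.72% of all genes were. At that share, families of this size would hold few such genes. Of the 22 keratins, 2 had 3 counts or fewer in each library. The highest Hox gene was *hoxb3a* with 4226, 5217 and 5085 counts. How alike the genes of these families are was not checked, since no sequences were at hand. How the authors' counting shared reads among similar genes is not known either.

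A few genes at 0 in WT vehicle had counts in other groups. *hook2* had 9, 19 and 19 counts in mutant vehicle, 0, 8 and 0 in WT rapamycin and 19, 10 and 13 in mutant rapamycin. *si:dkey-106c17.2* had 13, 18 and 55 in mutant vehicle, 107, 85 and 0 in WT rapamycin and 0, 75 and 25 in mutant rapamycin. *si:dkeyp-106c3.2* and *EGLN1* (ENSDARG00000105156) rested on 1 library each, with 110 counts in mutant vehicle replicate 2 and 43 in mutant vehicle replicate 1. *evx1*, a homeobox gene of interneurons and the tail, had 15, 32 and 11 counts in 1 library each of mutant vehicle, WT rapamycin and mutant rapamycin. In all, 17 of the 964 genes had a count in all 3 mutant vehicle libraries, 6 in all 3 of WT rapamycin and 9 in all 3 of mutant rapamycin.

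For duplicated genes, the question was which of the 2 paralogs took the counts. Pairs were formed from names that differ only in a final a or b, which gave 749 pairs, and 684 had at least 100 normalized counts together (counts scaled to the mean WT library by TMM). The log2 ratio of a over b, with 10 added to each normalized count, was tested with limma, and a pair was called unequal at an adjusted p under 0.05 and a ratio of at least 2-fold. In WT vehicle 465 of the 684 pairs, or 68.0%, were called unequal, 251 with more counts on a and 214 with more on b. The median ratio was 3.26-fold, 290 pairs differed by at least 4-fold, 137 by at least 10-fold and 20 by at least 100-fold. At the other end, 77 pairs differed by less than 1.25-fold. The spread of a pair was small beside these ratios, since the share of a in the pair's counts had a median SD of 1.78 percentage points. The ratio is one of counts, so a longer member gathers more of them, and the letters in a few names (*eif5a* and *eif5b*, for example) denote different genes and not paralogs.

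The largest ratio was that of *cycsa* and *cycsb*, 2 genes for cytochrome c. *cycsb* had 17000, 17328 and 18982 counts and *cycsa* had 0 in every WT vehicle library, so *cycsb* was at least 17770-fold higher in counts, set against 3 counts over the group. *cycsa* also held 0.0% of the pair in mutant vehicle, WT rapamycin and mutant rapamycin. How the authors' counting shared reads between these 2 genes is not known. Other pairs of basic metabolism had smaller ratios that were still strongly one-sided. *pdha1a*, a subunit of pyruvate dehydrogenase, had 11203, 11237 and 11638 counts against 27, 6 and 21 for *pdha1b* (log2 ratio 8.75, standard error 0.27, limma adjusted p = 2.692e-05). *ppa1b*, a pyrophosphatase, had 11152, 11592 and 11967 against 23, 23 and 26 for *ppa1a*, and *adh8b*, an alcohol dehydrogenase, 8533, 8563 and 9974 against 17, 15 and 14 for *adh8a*. The vitamin B12 carrier *tcnbb* had 14384, 10637 and 9082 counts against 9, 10 and 10 for *tcnba*.

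The rule for the largest ratios also named pairs of other roles. *sumo2b*, a modifier of proteins, had 6647, 6110 and 6029 counts against 10, 6 and 2 for *sumo2a*. For *mybphb*, a myosin-binding protein, the counts were 84591, 50006 and 65745 against 283, 278 and 410 for *mybpha*. *nxf1b*, an mRNA exporter, had 6097, 6627 and 5840 against 18, 24 and 23 for *nxf1a*. *arhgef15b* and *plp2b* had 2497 to 2734 and 2174 to 2390 counts, against 3 or fewer for *arhgef15a* and *plp2a*. In 11 of the 684 pairs 1 member had 3 counts or fewer in every WT vehicle library, and in 3 of these it had none.

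Among pairs listed for their known roles, 20 of 46 could be matched by name. Of the 15 of these in the test, 9 were called unequal. The muscle actin pair was one-sided, with *actc1a* at 119225, 89713 and 93970 counts or 6.06% ± 0.513 of the pair (log2 ratio −3.96, limma adjusted p = 1.363e-05). For FKBP12, the protein that rapamycin binds, *fkbp1aa* had 39866, 36248 and 38011 counts against 1123, 797 and 910 for *fkbp1ab*, which is 97.59% ± 0.301 of the pair. *hmga1a*, a chromatin protein of dividing cells, took 98.16% ± 0.163, *ppiaa* (cyclophilin A) 72.73% ± 0.377, *ptmab* (prothymosin) 74.23%, *cirbpb* 69.41% and *ywhaqb* 67.75%. *neurod6b*, a neuronal transcription factor, had 3952, 3649 and 4091 counts against 547, 482 and 518 for *neurod6a*. For myelin basic protein, *mbpb* had 2118, 1860 and 2328 counts and *mbpa* 14, 9 and 46.

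Other listed pairs were near balance. The first member held 40% to 60% of the pair in 8 of the 20, among them *apoa1a* with 47.21% ± 1.53, *apoea* with 44.69% ± 3.2, *ckma* with 44.83% ± 0.823, *hmgb1a* with 55.43% ± 1.56, *rhoaa* with 42.81% ± 0.156 and *twist1a* with 55.23% ± 2.53. The β-actin genes *actb1* and *actb2* were at 45.27% ± 2.25 and 54.73%, and the cofilins *cfl1* and *cfl1l* at 53.01% ± 1.74 and 46.99%. The β-catenin genes were not, since *ctnnb1* had 24819, 28168 and 30558 counts against 7269, 11765 and 10264 for *ctnnb2*. *tp53inp2* had 5244, 5140 and 5032 counts against 1602, 1374 and 1274 for *tp53inp1*, and *h3f3a*, a histone H3.3 gene, had 61741, 61741 and 61640 against 945, 297 and 2745 for *h3f3b.1*.

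The pairs nearest to equal were *rab1ba* and *rab1bb*, small GTPases of vesicle traffic, *obsl1a* and *obsl1b*, *emilin1a* and *emilin1b*, *map3k14a* and *map3k14b*, and *atp5if1a* and *atp5if1b*, inhibitors of the mitochondrial ATPase. For *emilin1a*, a protein of elastic matrix, the share of the pair was 49.65%, 50.18% and 50.74%, and for *rab1ba* it was 47.98%, 51.03% and 51.33%. Their limma adjusted p values ran from 0.638 for *atp5if1a* to 0.938 for *rab1ba*, with standard errors of the log2 ratio from 0.07 to 0.08.

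**Figure D3:**
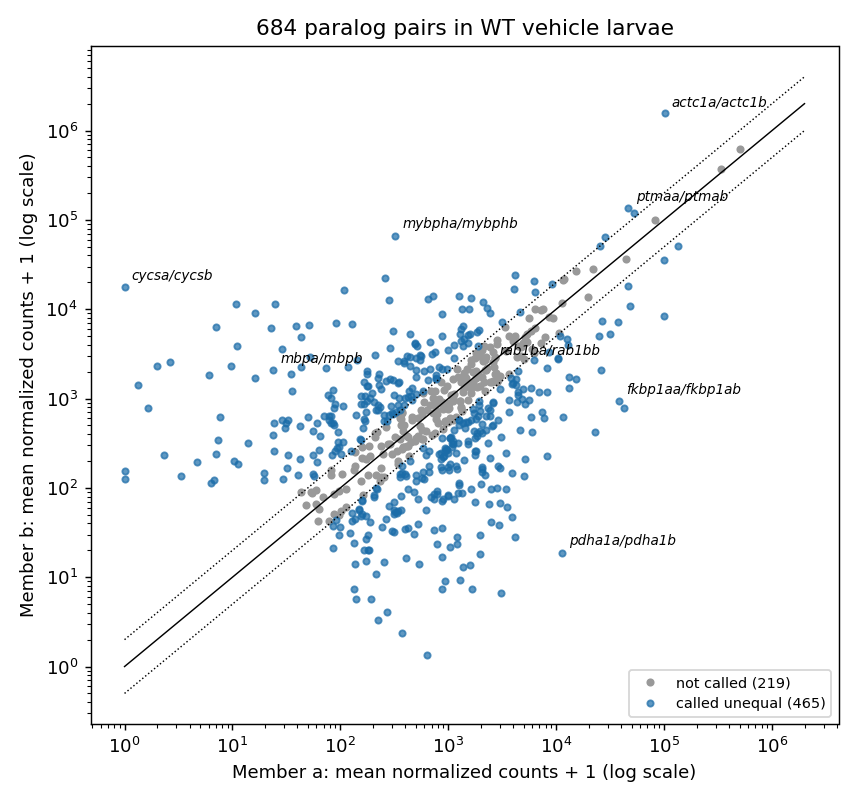
Mean normalized counts plus 1 of member a (x axis) and member b (y axis), both on a log scale, for 684 paralog pairs in WT vehicle larvae, with 465 called unequal in blue. The solid line marks equal counts and the dotted lines a 2-fold ratio, and *cycsa*, at 0 counts, lies at the left edge.

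The balance of some pairs differed in mutant larvae. The ratio was called different between mutant and WT vehicle (limma over all 12 libraries, adjusted p under 0.05) for 208 of 684 pairs, or 30.4%, and for 165 without WT vehicle replicate 2. This share depends on where the names come from. Of 212 pairs with a name from tables of the study, 133 were called (62.7%), and of 472 named from the general gene list alone 75 (15.9%). The tables list genes that differed (188 of these pairs, 124 called) or were spliced differently (24 other pairs, 9 called) in mutants, so the first set was already chosen for change. The side with more counts in the group mean switched in 16 of the 465 unequal pairs, 15 of them with a study name. The change of ratio was called in all 16, but whether the mutant ratio lay beyond equality was not tested. All 3 mutant libraries were on the other side in 13 of the 16, and *asb5*, *col14a1* and *opn6* had 1 mutant library on the WT side. One of the 16, *fam198a* and *fam198b*, carries the letters of 2 human genes. In all 16 the WT rapamycin mean stayed on the side of WT vehicle.

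The largest changes of balance were those of *emilin2*, *fabp11*, *ankrd1*, *gas2* and *agxt*. *emilin2a* held 16.28%, 20.01% and 14.05% of the pair in WT vehicle and 88.89% ± 2.83 in mutants, as *emilin2b* went from 2623, 2607 and 2881 counts to 569, 754 and 484 and *emilin2a* from 510, 652 and 471 to 4931, 4539 and 5054. *ankrd1a*, of a family of stress-induced muscle proteins, went from 5.01% ± 0.648 to 67.14% ± 9.82 of its pair. *fabp11a*, a fatty acid binding protein, went from 79.23% ± 1.87 to 99.28% ± 0.428, and *gas2a* from 60.58% ± 3.56 to 97.81% ± 1.71. *agxta* fell from 61.93%, 58.88% and 56.78% of its pair to 9.37% ± 9.16, where *agxtb* had 3684, 607 and 4137 counts in mutants, so that mutant replicate 2 was far below the others.

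Counts and shares are given for some of the pairs whose mean switched side. *loxl2b*, a crosslinking enzyme of collagen, had 4183, 4176 and 4257 counts in WT and 1841, 2003 and 2054 in mutants, while *loxl2a* had 1588, 1593 and 1362 and then 4586, 3090 and 4714. *elna*, an elastin, held 82.82% ± 4.71 of its pair in WT and 21.51% ± 12.6 in mutants, *spon2a* 27.57% ± 0.905 and 73.83% ± 4.13, *thbs3a* 28.4% ± 3.26 and 68.82% ± 5.14, and *col14a1a* 22.71% ± 3.06 and 52.37% ± 9.83. *trim55a* held 69.25% ± 2.6 and 47.06% ± 2.64 and *asb5a* 31.49% ± 1.71 and 51.13% ± 2.36. The mutant shares of *col14a1a* and *asb5a* were within 1 SD of equal. These genes were picked out of the 16 after their values were seen.

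Rapamycin in WT larvae changed 1 of the 684 ratios, or 0.146%. *sema6ba*, a semaphorin of axon guidance, had 104, 65 and 76 counts in WT vehicle against 158, 156 and 159 for *sema6bb*, and its share of the pair rose from 33.82% ± 5.3 to 57.62% ± 5.31 (log2 change 1.27, standard error 0.20, limma adjusted p = 0.0306). The call was lost when any 1 of 8 libraries was left out, with adjusted p values up to 0.228 without WT vehicle replicate 2 and 0.223 without WT vehicle replicate 3.

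The 3 WT vehicle libraries resembled each other closely for most genes. Of the 17621 genes with a mean of at least 100 normalized counts, 13071 (74.2%) ranged by less than 1.25-fold over the libraries, 278 (1.58%) by at least 2-fold and 31 by at least 4-fold. The median coefficient of variation was 7.56%, and it fell from 9.67% for genes with a mean under 1000 normalized counts to 5.50% for those with 10000 or more. The share of genes with a 2-fold range did not follow, at 2.26% under 1000, 0.633% from 1000 to under 10000 and 2.34% at 10000 or more. Among the 278 genes, replicate 1 was highest for 100, replicate 2 for 106 and replicate 3 for 72.

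Genes in common use as references varied by unequal amounts. The coefficient of variation was 2.91% for *ppiab*, 3.19% for *POLR2D*, 3.23% for *actb2*, 3.37% for *tuba8l4*, 3.46% for *SDHA*, 3.73% for *GAPDH* and 3.76% for *RPLP0*, and reached 12.01% for *actb1*, 17.17% for *tuba1b*, 18.64% for *TBP* and 24.73% for *ubb*. *TBP*, of the basal transcription machinery, had 1688, 1233 and 1225 counts, and the ubiquitin gene *ubb* 19368, 29103 and 20619. Of the 21 reference genes none was called between mutant and WT vehicle, where 7.95% of all 22335 genes tested were. Their median log2 difference was 0.22, against −0.0043 for all genes tested. *GAPDH*, the control of the study's RT-qPCR, was higher in mutants by 0.60 on the log2 scale (standard error 0.09, edgeR adjusted p = 0.00116, and 0.00606 without WT vehicle replicate 2), which is below the 2-fold minimum.

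The widest ranges came from genes of modest level. *KYAT3* (ENSDARG00000101791), an aminotransferase, had 13, 553 and 1147 counts, *ptpdc1b*, a phosphatase, 681, 30 and 22, and *zgc:194246* 543, 706 and 29. *si:ch73-236c18.5* had 16, 227 and 150 counts, and *si:dkey-31g6.6* 669, 2528 and 4931. A pair of genes without a name had low values in replicate 3, with 259, 257 and 12 counts for ENSDARG00000103275 and 868, 699 and 105 for ENSDARG00000103401. For *ptpdc1b* the high value was that of 1 library, since the 9 libraries of the other groups had 21 to 115 counts. For *zgc:194246* replicate 3 was lowest in every group, with 76, 64 and 13 counts in mutant vehicle, WT rapamycin and mutant rapamycin.

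Since replicate numbers run through all groups and larvae came from 3 clutches, the other 9 libraries were tested for genes that differ by replicate number, without use of WT vehicle. The test called 36 of 22606 genes (0.159%, edgeR adjusted p under 0.05), and 5007 had an unadjusted p under 0.05. WT vehicle had the same highest and the same lowest replicate as this fit for 21 of the 36, where 23.9% of all genes tested did. Replicate 2 was lowest for 26 of the 36. The median log2 range in WT vehicle was 1.22 for the 36 genes and 0.24 for all tested. Of the 100 genes with the widest range in WT vehicle, 56 had the same highest and lowest replicate in the other 9 libraries, and 12 were called.

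The clearest cases dropped in every library numbered 2. *RXFP2* (ENSDARG00000032820), a relaxin family receptor, had 717, 72 and 821 counts in WT vehicle, 838, 32 and 1117 in mutant vehicle, 632, 56 and 672 in WT rapamycin and 599, 17 and 807 in mutant rapamycin (edgeR adjusted p = 0.0288). *nlrc8* had 238, 26 and 167 counts in WT vehicle and 16 to 22 in the other libraries numbered 2 (adjusted p = 0.00813 by edgeR). The histone gene *h3f3b.1*, with 945, 297 and 2745 counts, kept the order of replicates 2, 1 and 3 in every group (edgeR adjusted p = 0.0129). *her4.1*, a target of Notch signalling in neural progenitors, had 651, 252 and 1650 counts (edgeR adjusted p = 0.0412), and *KLHL32* 1174, 460 and 1491 (edgeR adjusted p = 0.00946). The esterase *ces3* had 5977, 2702 and 10165 counts and *si:dkey-126g1.9* 2621, 616 and 1183, both again lowest in replicate 2.

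Other orders were found too. *si:ch211-188p14.4* was highest in replicate 2, with 155, 536 and 328 counts, and *si:ch211-181d7.2* lowest in replicate 3, with 857, 618 and 355. The unnamed gene ENSDARG00000039173 was highest in replicate 1, with 2933, 1780 and 1139 counts.

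**Figure D4:**
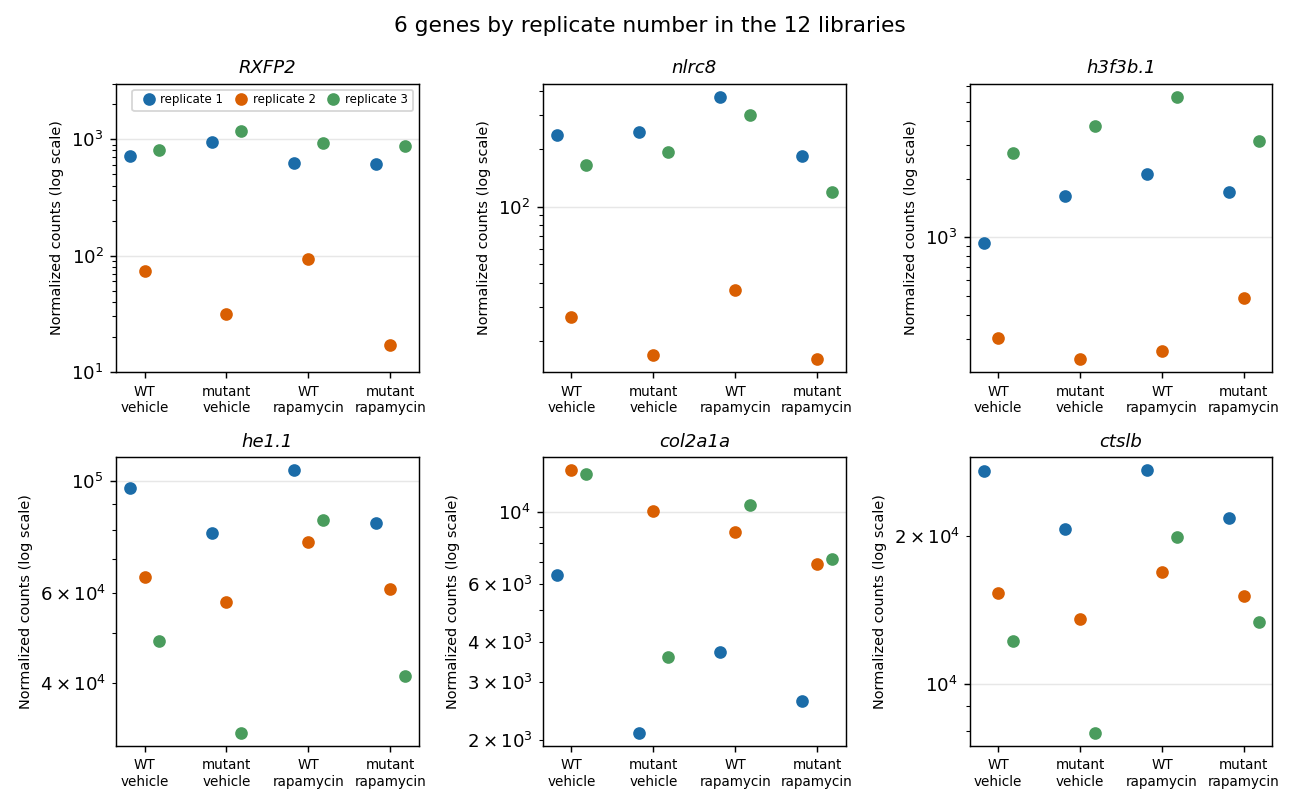
Normalized counts (log scale, y axis) of 6 genes in the 12 libraries, by group (x axis) and replicate number (colour), with 1 point per library. For *RXFP2*, *nlrc8* and *h3f3b.1* the libraries numbered 2 are lowest in all 4 groups, for *he1.1* and *ctslb* those numbered 1 are highest, and for *col2a1a* those numbered 1 are lowest.

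Some tissue lists leaned to 1 replicate number without a call. The 7 hatching gland genes took 0.222%, 0.144% and 0.122% of the WT vehicle libraries. Of these genes 6 were highest in replicate 1, where 35.7% of all 22598 genes tested were. The hatching enzyme *he1.1* had 97422, 63443 and 48844 counts, *he1.2* had 35133, 17052 and 19101, and the cathepsin *ctslb*, a marker of the gland, 27326, 15001 and 12384. All 3 genes were highest in replicate 1 in all 4 groups, and their edgeR adjusted p values for replicate number were 0.140, 0.0701 and 0.128. Collagens leaned the other way. *col2a1a*, *COL11A1*, *col9a3*, *col9a2*, *col11a2* and *col8a1a* were lowest in replicate 1 in all 4 groups, with 6308, 11129 and 10778 counts for *col9a3* and 994, 2067 and 2218 for *col8a1a* in WT vehicle. Their adjusted p values in the same edgeR test ran from 0.102 for *col2a1a* to 0.227 for *COL11A1*. The cartilage genes *matn4* and *hapln1a* did not follow, with 39082, 33419 and 39839 and 5880, 5328 and 5562 counts. These genes were picked after their values were seen.

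Finally, each WT vehicle library was left out in turn, mutant vehicle was compared with the other 2, and the position of the left-out library was read on the called genes. Without replicate 2, 909 genes were called higher in mutants, and replicate 2 lay above both other WT libraries for 557 of them (61.3%), where it did so for 34.0% of all 22622 genes tested. For 796 genes called lower it lay below both for 457 (57.4%), against 34.3% of all genes. Among genes at least 4-fold higher the share was 75.5%, and among those at least 4-fold lower it was 61.4%. Replicate 1 lay on the mutant side for 31.0% of 868 higher and 40.1% of 755 lower genes, against 35.7% and 34.8% of all genes tested. For replicate 3 these shares were 24.6% of 835 and 25.1% of 688, against 29.6% and 31.3%. The median position of replicate 2 on the way from the other WT libraries to the mutants, taken as 0% and 100%, was 5.36% for higher and 18.7% for lower genes. For replicate 1 these medians were −0.90% and 6.26%, and for replicate 3 −1.60% and −6.98%. The called genes were chosen without the library whose position is given, but the other 2 WT libraries took part in both.

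**Figure D5:**
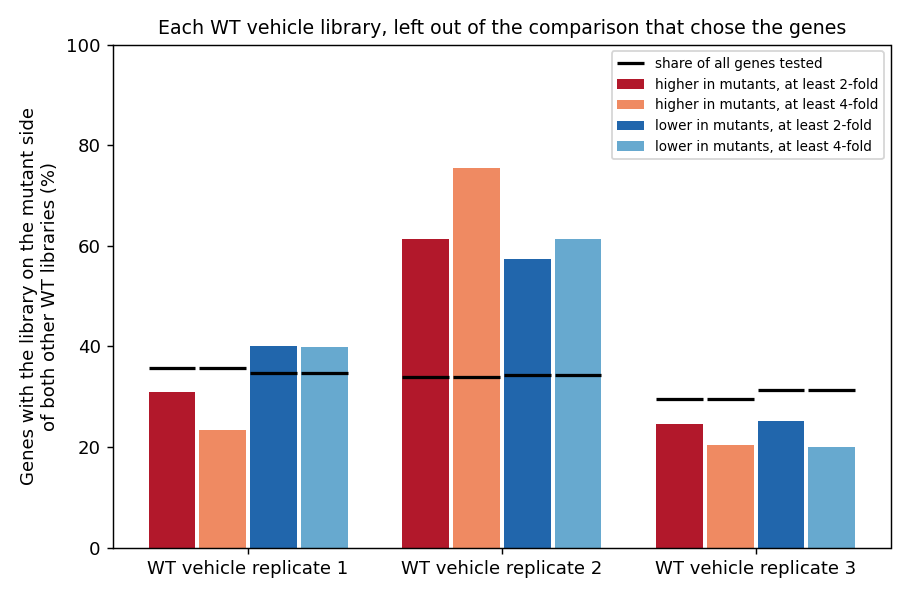
Percent of called genes (y axis) for which a WT vehicle library, left out of the comparison that chose the genes, lay on the mutant side of both other WT libraries, for genes higher (red) or lower (blue) in mutants by at least 2-fold or 4-fold. Black lines give the share over all genes tested, and replicate 2 reaches 61.3% and 75.5% for higher genes.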

How the data were processed

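RNA of whole larvae was sequenced from poly-A selected, stranded libraries, in 4 groups of 3. The authors deposited estimated counts per gene for all 12 libraries, rounded to whole numbers; the submitters' processing notes name Salmon and the GRCz10 build, and how reads were divided between near-identical genes is not given in the sources used here. Groups came from the sample labels. Names came from the study's tables for 1948 of 25902 genes and from a gene name table for 20992, some under the human symbol in capitals, and 2962 stayed without a name. A name was shared by 2728 genes, so an Ensembl identifier is given where it is needed.

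Normalized counts are counts scaled by TMM to the mean effective size of the WT vehicle libraries (80253718). Mutant and WT vehicle were compared on 6 libraries with edgeR's quasi-likelihood test (edgeR 4.0.16 in R 4.3.3) after filterByExpr with a minimum count of 10, and rapamycin with vehicle in WT in a model of all 12. Replicate numbers were tested with edgeR on the 9 libraries outside WT vehicle, with group as a term. Paralog ratios were tested with limma 3.58.1 on log2 values with a pseudocount of 10. All adjusted p values are Benjamini-Hochberg values over all genes or pairs tested, at 0.05. The fits of mutant against WT vehicle, of replicate number, of unequal pairs and of changed ratios in mutants were tested on simulated data. The other steps were not. The study's methods name 3 independent clutches without tying them to replicate numbers. Deviations from group means correlated in all 18 same-numbered pairs of libraries (mean r 0.385, lowest 0.137). All pairs joined libraries of different groups. In the 36 others r was −0.494 to 0.0109 (mean −0.192). Since deviations sum to 0 within a group, positive values in same-numbered pairs bring negative ones in the others, which are therefore not separate evidence. Libraries of the same number thus shared part of their variation. The main comparisons of groups were fitted without pairing, and a replicate block was run as an alternative. Precision is given by the spread between libraries, and counts of 0 allow an expected count of up to 3.

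The gene lists, pairs and tests were chosen with earlier results of these data known. Of 465 list symbols 38 were not matched, and 69 were matched by a human symbol without the paralog letter. Genes named by rule were the 20 with the largest share of counts, the 3 highest of each list, the listed pairs, the 10 pairs with the largest ratio and 5 nearest to equal among those with 1000 normalized counts, the 5 largest changes of ratio, genes at 0 with the highest means elsewhere, and the 10 widest ranges and 10 largest replicate-number differences among genes with 100 normalized counts. A few of these are not reported here. Other genes were named after their values were seen. Alternatives were other scaling factors, filters, pseudocounts and tools, a replicate block, and leaving out each library.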

Additional observations from a re-analysis of the deposited data

How the results depend on the processing

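No gene or ratio with an alternative run changed sign, although the balance of calls in mutants turned under upper-quartile scaling. Between mutant and WT vehicle, 6333 genes passed without the fold minimum (3305 higher and 3028 lower), against 1775 with it, and 1523 to 1978 when any 1 library was left out. With the replicate number as a block, 1860 genes were called, 1756 of them among the 1775, and the paired fit gave 255 changed ratios in mutants, 1 with rapamycin and 0 genes with rapamycin. No gene or pair named here lost its call under the block. Upper-quartile scaling gave 1799 genes, 817 higher and 982 lower, against 905 and 870. DESeq2 called 11 genes for rapamycin in WT larvae, and edgeR called 0 with each library left out. Genes that differed by replicate number came to 58 without a filter, 339 with all 12 libraries and 2052 by DESeq2's likelihood ratio test, against 36, so their number depends on the tool, and the cause was not tested.

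Unequal pairs came to 302 at a minimum of 1000 normalized counts, where fewer pairs were tested. They came to 758 for pairs of genes that share 1 symbol, an alternative added after seeing the data. That set held 1287 pairs before the minimum count, against 749 by letter, so these counts of calls are not comparable. With single libraries left out, unequal pairs by letter ran from 460 to 466. Changed ratios in mutants ran from 147 to 257. The rapamycin count was 0 at a minimum of 1000, 0 in 8 of the fits that left out 1 library, 4 without WT rapamycin replicate 3, and the *sema6ba* ratio's adjusted p (limma) ran from 0.00558 to 0.228. Genes without counts came to 1886 when 3 counts or fewer per library were allowed and to 1157 to 1188 over 2 libraries. The share of the first 10 genes ran from 11.75% to 12.34% and the biological coefficient of variation from 10.98% to 13.34% with single libraries left out, and the latter was 10.74% for genes with at least 100 counts in every library. Single-gene calls in mutants were lost for *SLC5A5*, *sagb*, *ins*, *tfap2b* and *rag2* when some 1 library was left out, *tfap2b* and *rag2* without WT vehicle replicate 2. Ratios per coding length, a minimum sequence identity of pairs and genes ranked per length were not run, since no lengths or sequences were at hand. At this depth a gene at 0 in all 3 libraries may still have an expected count of up to 3.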
